A study of Mus musculus with 4 samples.

Results

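Bcl11a and Bcl11b are paralogous genes for zinc-finger transcription factors, and their detection was described cell by cell in mouse T-cell progenitors. The members were the 2 rows of the gene lists with these symbols, among 31053 genes counted. Per RefSeq on build GRCm38.p6, Bcl11a (ENSMUSG00000000861) lies at chr11:24076564-24173558 on the plus strand and Bcl11b (ENSMUSG00000048251) at chr12:107910403-108004145 on the minus strand. Both are protein-coding, and the files give no position within the genes. Cells were used if they had at least 500 detected genes, under 10% mitochondrial UMIs and 1 clear hashtag. Experiment 1 kept 8797 such cells and experiment 2 kept 8335.

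The BCL11 proteins act mainly as transcriptional repressors. Bcl11a is expressed in multipotent and early lymphoid progenitors, is needed for B cells and plasmacytoid dendritic cells, and silences fetal globin genes in red cell precursors. Bcl11b is switched on when T progenitors commit to the T lineage, and it then holds back natural killer (NK), innate lymphoid and stem cell programmes. Early T progenitors therefore pass from a state with Bcl11a to a state with Bcl11b, which is why the joint or exclusive detection of the pair in single cells is of interest.

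The study grew bone marrow progenitors from mice with a Bcl2 transgene on OP9-Dll1, a stromal cell line that displays a Notch ligand, with IL-7 and Flt3-ligand at 10 ng/ml each, and delivered retroviral vectors on day 2. In the gain-of-function arm, progenitors of B6.Bcl2 mice aged 8 to 10 weeks received MSCV-Runx1-mCherry or MSCV-empty-mCherry and were harvested after 4 or 6 days in all. For loss of function, progenitors of B6.Cas9;Bcl2 mice received E42-gRunx1-hNGFR with E42-gRunx3-mTurquoise (3 guide RNA pairs per gene) or E42-gControl vectors with guides to luciferase, and were harvested after 5 or 8 days. Live CD45+ cells without lineage markers and with the vector markers were sorted, pooled in equal numbers and profiled with 10x Chromium v3. All cells carried the Bcl2 transgene, and the labels call them Phase1 (cKit high) progenitors, with 4 to 5 days of culture in experiment 1 and 4 to 8 days in experiment 2. Each experiment had 1 mRNA library and 1 hashtag library. Hashtags are DNA barcodes on antibodies that mark a culture before pooling. The hashtag columns are named by sequence only and carry no condition, so overexpression, knockout, controls and harvest days could not be told apart here. The 8 hashtags of each experiment were described as cultures of unknown condition, without tests. The intervals given are at 95%, cover counting error alone, and stand in for no replicate check, which the design did not allow.

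The barcodes below identify the 8 cultures whose values follow, with every base in capitals because the whole tag is read, and the numbers give the order of the columns. The same barcodes were used in both experiments, but nothing ties hashtag 1 of experiment 1 to hashtag 1 of experiment 2.
Hashtag 1: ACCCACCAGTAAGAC
Hashtag 2: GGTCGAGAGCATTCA
Hashtag 3: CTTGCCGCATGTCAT
Hashtag 4: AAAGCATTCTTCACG
Hashtag 5: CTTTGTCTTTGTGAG
Hashtag 6: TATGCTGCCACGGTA
Hashtag 7: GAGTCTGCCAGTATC
Hashtag 8: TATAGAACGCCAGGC

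Hashtags held 691 to 1291 cells in experiment 1 and 855 to 1312 in experiment 2. The median depth over cells was 24753 and 26338 UMIs, and the hashtags' medians ran from 18057.5 to 29606 and from 19543 to 31961. Cell barcodes found in both experiments numbered 39. The cKit label was checked with Kit transcripts after every cell had been thinned at random to 10000 UMIs. At least 1 Kit UMI was found in 1717 cells without and 2135 cells with Il2ra (CD25, a marker of T specification) in experiment 1, against 2355 and 2017 cells without Kit. In experiment 2 Kit was found in 1281 and 959 cells and was missing from 2141 and 3365. In experiments 1 and 2 Kit averaged 66.8 and 34.5 CPM (counts per 1000000 UMIs) over the summed counts of cells with only Bcl11a and cells with only Bcl11b, so a thinned cell without a Kit UMI need not lack Kit, and the label could not be checked cell by cell. They also held cells with markers of other types, defined as 3 or more genes of a marker list at 2 or more UMIs each. Granulocyte or monocyte markers (Elane, Mpo, Prtn3 and others) were carried by 718 cells of experiment 1 and 1459 of experiment 2. MHC class II and other dendritic markers were carried by 1693 and 2577 cells, and mature T markers (Cd8a, Cd8b1, Trac, Cd4) by 4 and 148. The dendritic rule could be met by H2-Aa, H2-Ab1, H2-Eb1 and Cd74 alone, so cells that met it need not be dendritic cells.

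Bcl11a was present in every culture. Levels are UMIs summed over the cells of a hashtag and scaled to counts per 1000000 UMIs (CPM). In experiment 1 Bcl11a stood at 110.2, 110.3, 73.6, 69.8, 74.2, 77.1, 120.6 and 99.8 CPM in hashtags 1 to 8. Hashtags 1, 2, 7 and 8 were high and hashtags 3 to 6 low, and the intervals of the former did not reach those of the latter. The highest level (hashtag 7) was 1.73 times the lowest (hashtag 4; interval 1.63 to 1.83). Along the order 4, 3, 5, 6, 8, 1, 2, 7 the intervals of 4 neighbouring pairs overlapped: 4 and 3, 3 and 5, 5 and 6, and 1 and 2. In experiment 2 the Bcl11a levels of hashtags 1 to 8 were 83.3, 61.2, 70.7, 37.1, 77.0, 101.5, 39.6 and 80.0 CPM. Hashtags 4 and 7 lay well below the others and overlapped each other. Hashtag 6 was highest, at 2.73 times hashtag 4 (2.54 to 2.94), and the neighbours 5 and 8, and 8 and 1, also overlapped.

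In fold terms, Bcl11b varied far more between cultures than Bcl11a. Experiment 1 gave 6.09, 3.33, 34.7, 35.0, 25.5, 16.1, 15.4 and 9.86 CPM in hashtags 1 to 8. The Bcl11b levels of hashtags 3 and 4 were the highest and overlapped, as did those of 7 and 6, and hashtag 2 was the lowest. Highest over lowest was 10.5 (8.71 to 12.8), and 5.74 without hashtag 2. Experiment 2 gave 2.04, 15.6, 12.8, 128.5, 10.1, 4.75, 63.4 and 22.9 CPM. No neighbouring intervals overlapped, and the order from low to high was 1, 6, 5, 3, 2, 8, 7, 4. The ratio of hashtag 4 to hashtag 1 was 62.9 (49.7 to 80.9). It was 27.0 without hashtag 1 and 31.1 without hashtag 4. Hashtags 4 and 7 of experiment 2, lowest in Bcl11a, were thus highest in Bcl11b. Across the 8 hashtags the correlation of log2(CPM + 1) of the 2 genes was -0.79 in experiment 1 and -0.89 in experiment 2, a description over points that share a library.

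**Figure D1:**
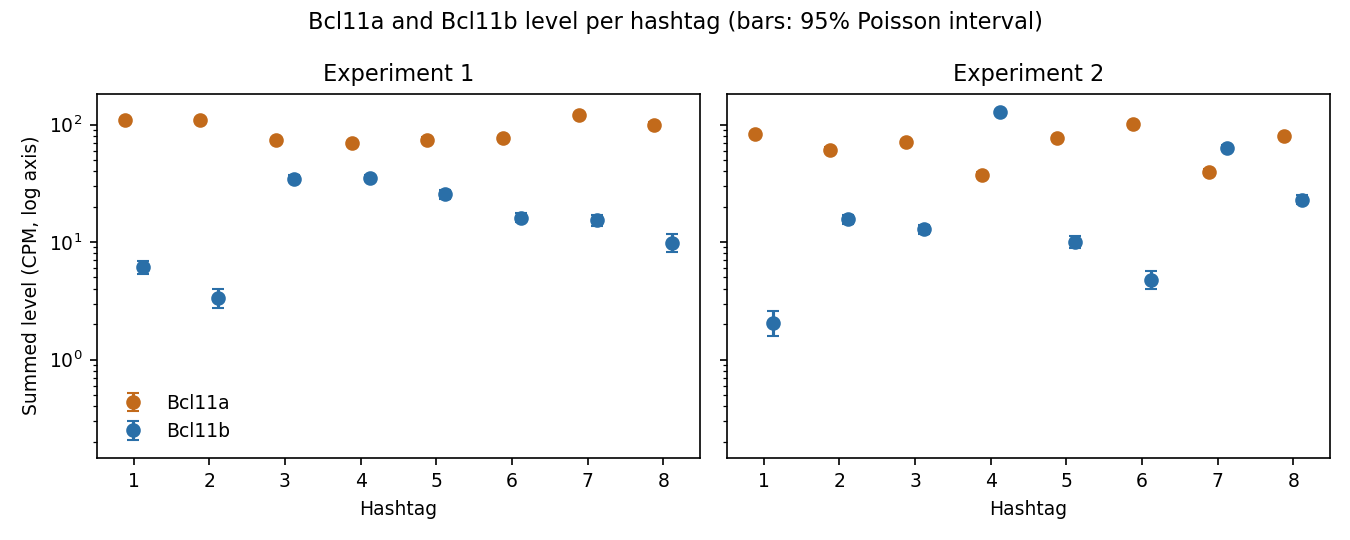
Summed Bcl11a (orange) and Bcl11b (blue) level of each hashtag in CPM on a log axis, with 95% Poisson intervals, for both experiments. Bcl11b spans 3.33 to 35.0 CPM (experiment 1) and 2.04 to 128.5 CPM (experiment 2), a wider range in fold terms than Bcl11a (69.8 to 120.6 and 37.1 to 101.5 CPM).

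The share of detecting cells, here without thinning, also differed between hashtags. For Bcl11b it followed the order of the levels, but for Bcl11a it did not. Bcl11a had at least 1 UMI in 66.0% (hashtag 5) to 85.8% (hashtag 2) of the cells of experiment 1, and in 33.4% (hashtag 4) to 79.0% (hashtag 1) of those of experiment 2. Hashtag 7 of experiment 1, highest in Bcl11a level, had it in 73.4% of cells, at the lowest median depth (18057.5 UMIs). Hashtag 6 of experiment 2, highest in level there, had it in 69.0%. Its detecting cells held a mean of 4.21 Bcl11a UMIs, the most of that experiment. The Bcl11b share ran from 4.17% in hashtag 2 to 27.3% in hashtag 4 of experiment 1. In experiment 2 it ran from 3.29% in hashtag 1 to 58.0% in hashtag 4. Cells with Bcl11b carried a mean of 2.30 to 3.36 Bcl11b UMIs in experiment 1. In experiment 2 this mean was 2.06 to 2.89 in 7 hashtags and 4.95 in hashtag 4, so that culture was high both in its share of cells and in UMIs per cell. In experiment 1, 515 cells held exactly 1 Bcl11b UMI, 558 held 2 to 4 and 253 held 5 or more. In experiment 2 these numbers were 625, 820 and 503.

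Free RNA can give UMIs in cells that do not express a gene, so both genes were also read in cells of types that should lack them. Granulocyte or monocyte-marker cells had Bcl11b in 0.696% (5 of 718, median 33327 UMIs) in experiment 1, below each hashtag's share there. In experiment 2 it was 3.43% (50 of 1459, interval 2.55 to 4.49%, median 36289 UMIs). The 3.29% of hashtag 1 in experiment 2 (2.29 to 4.56%, median 31961 UMIs) overlapped this pooled share, which took in 11.8% and 12.5% in hashtags 4 and 7. Among hashtag 1's own cells Bcl11b was found in 1.10% of granulocyte or monocyte-marker cells (4 of 362) and in 4.43% of cells with none of the marker lists (27 of 610). Bcl11a was found in 9.46% of the mature T-marker cells of experiment 2 (14 of 148, median 27332.5 UMIs) and in 8.20% of its NK-marker cells (5 of 61, median 19500). Every hashtag lay above these Bcl11a shares. Among granulocyte or monocyte-marker cells Bcl11a was common, with 86.9% and 77.1% of cells in experiments 1 and 2, so Bcl11a detection was not limited to T progenitors in these pools. The share of such cells per hashtag ran from 3.05 to 17.2% in experiment 1 and from 4.72 to 35.0% in experiment 2, and their part in the Bcl11a differences was examined only by leaving out all marker-carrying cells. The Bcl11a ratio of highest to lowest hashtag was then larger, at 2.12 and 3.76.

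To compare detection at equal depth, every cell was thinned to 10000 UMIs, which left out 573 shallower cells of experiment 1 and 589 of experiment 2. At this depth, more cells had only Bcl11a or only Bcl11b than had both. Before thinning, Bcl11a was also found in 49.5% of all Bcl11b cells in experiment 1 and in 29.5% in experiment 2. Of the 8224 thinned cells of experiment 1, 4017 had Bcl11a only, 606 had Bcl11b only, 242 had both and 3359 had neither. Experiment 2 had 2966 cells with Bcl11a only, 1057 with Bcl11b only, 168 with both and 3555 with neither, of 7746. The joint share averaged 2.85% over the hashtags of experiment 1 (0.606% in hashtag 2 to 6.41% in hashtag 3). It averaged 2.16% in experiment 2 (0.0999% in hashtag 1 to 5.64% in hashtag 4). Without thinning, the averages were 7.33% and 6.74%. The neither class was large at this depth, at 36.0 to 46.8% and 38.8 to 52.2% of a hashtag's cells. Without thinning it averaged 19.1% and 22.9%, so a cell with neither gene at 10000 UMIs need not lack both.

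**Figure D2:**
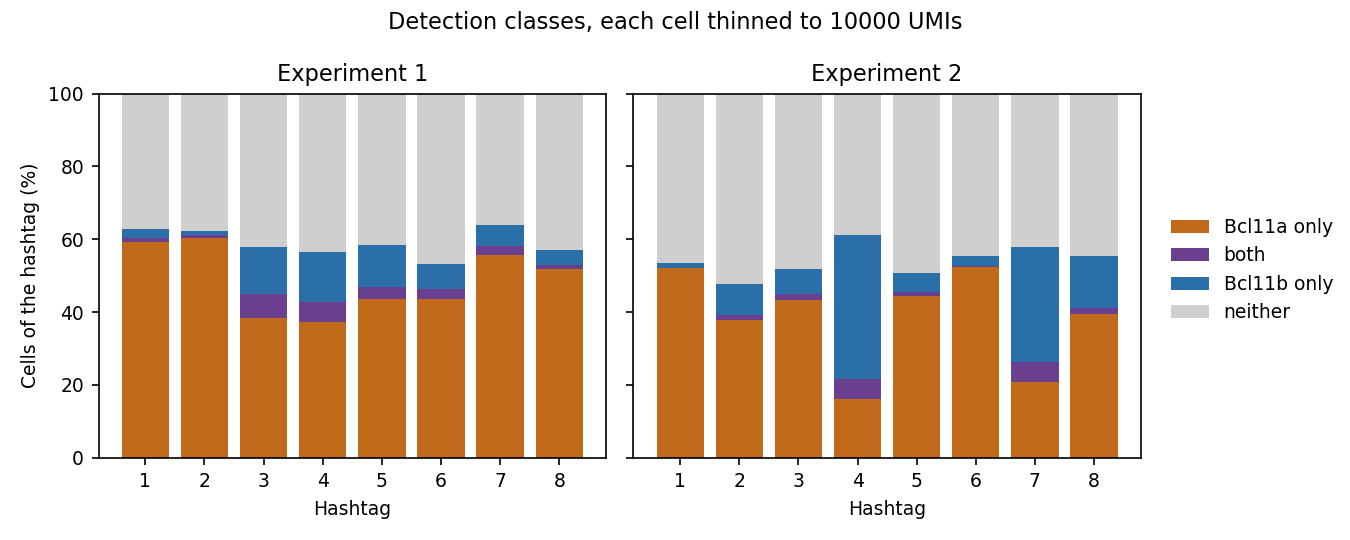
Stacked shares of thinned cells (% of the hashtag) with Bcl11a only (orange), both genes (purple), Bcl11b only (blue) or neither (grey), by hashtag and experiment. The purple band never exceeds 6.41% of cells, and Bcl11b-only cells reach 39.6% in hashtag 4 of experiment 2.

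Joint detection was rarer than the 2 single shares would give if they were unrelated. If detection of the genes were independent within a hashtag, the joint share would be the product of the single shares. The observed joint share was below that product in 8 of 8 hashtags of each experiment, and its interval lay wholly below it in 7 hashtags of experiment 1 and in 8 of experiment 2. The exception was hashtag 2 of experiment 1, with 7 joint cells against 13.4 from the product. Observed over product ranged from 0.344 (hashtag 8) to 0.736 (hashtag 3) in experiment 1, and from 0.128 (hashtag 1) to 0.576 (hashtag 4) in experiment 2. The Mantel-Haenszel odds ratio, which pools the hashtags without mixing their levels and is 1 for unrelated genes, was 0.386 (0.330 to 0.453) in experiment 1 and 0.261 (0.218 to 0.312) in experiment 2. It was 0.369 and 0.264 without the cells carrying markers of other types.

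**Figure D3:**
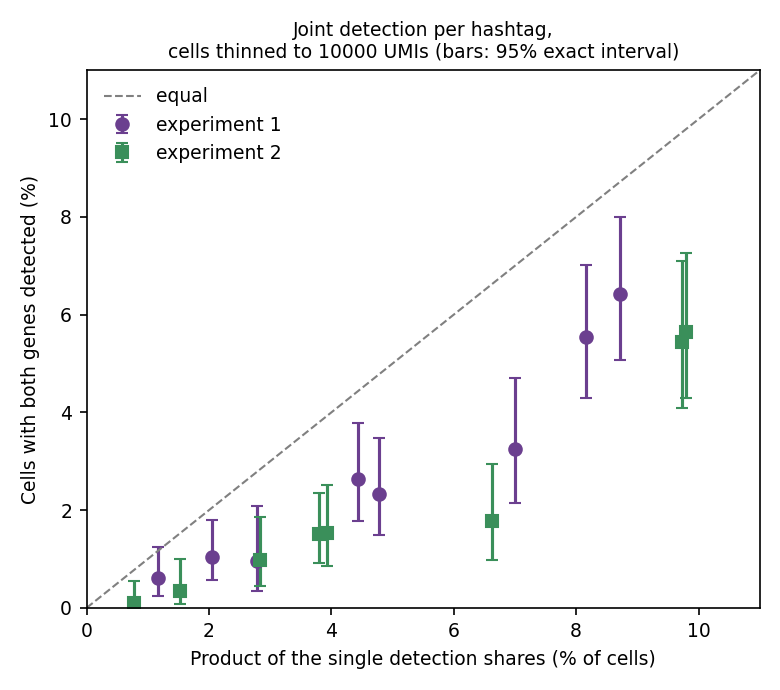
Joint detection share (% of thinned cells, 95% exact interval) against the product of the single detection shares, for the 8 hashtags of experiment 1 (purple circles) and of experiment 2 (green squares). All 16 points lie below the dashed line of equality.

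The relation was graded with the number of UMIs. In experiment 1 Bcl11a was detected in 54.5% of thinned cells without Bcl11b, in 34.2% of cells with 1 Bcl11b UMI, in 24.3% with 2 and in 20.9% with 3 or more. For experiment 2 the series was 45.5, 18.2, 10.5 and 9.79%. The fall from 0 to 1 Bcl11b UMI exceeded the intervals in both experiments, whereas the values at 2 and at 3 or more overlapped (18.4 to 31.1% and 15.7 to 26.9% in experiment 1, 7.16 to 14.6% and 7.02 to 13.2% in experiment 2). Read the other way, Bcl11b was detected in 15.3, 6.92, 5.03 and 2.99% of cells with 0, 1, 2 and 3 or more Bcl11a UMIs in experiment 1. The same series was 22.9, 6.71, 4.01 and 2.41% in experiment 2. These series pool hashtags that differ in both genes. Within each hashtag, the summed Bcl11a level of cells with Bcl11b was 0.361 to 0.578 times that of cells without it in experiment 1, all cells unthinned. The range was 0.204 to 0.542 in experiment 2, with the lowest value in hashtag 8, so the Bcl11a level was lower in Bcl11b-detecting cells in all 16 hashtags.

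**Figure D4:**
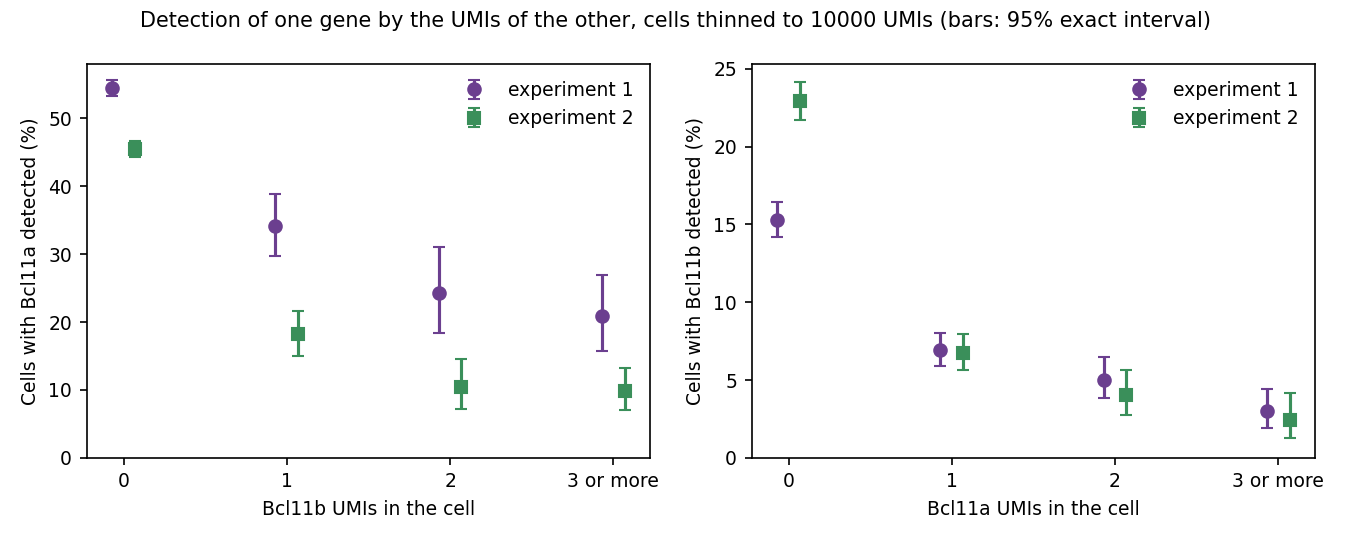
Share of thinned cells (%, 95% exact interval) with Bcl11a by the number of Bcl11b UMIs in the cell (left) and with Bcl11b by the number of Bcl11a UMIs (right), for experiment 1 (purple) and experiment 2 (green). Bcl11a detection drops from 54.5 to 20.9% and from 45.5 to 9.79% from 0 to 3 or more Bcl11b UMIs.

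Thinned cells with both genes often held a single UMI of one or both. Of the 242 joint cells of experiment 1, 92 (38.0%) had exactly 1 UMI of each gene and 22 (9.09%) had 2 or more of each. In experiment 2, 76 of 168 (45.2%) had 1 of each and 19 (11.3%) had 2 or more of each. Before thinning, 18.4% of the 656 joint cells of experiment 1 and 17.0% of the 575 of experiment 2 had 1 of each, and 26.7% and 27.1% had 2 or more of each. Over all hashtags pooled, thinned joint cells held fewer UMIs of either gene than cells with that gene alone. The mean was 1.46 Bcl11a UMIs against 1.79, and 1.73 Bcl11b UMIs against 2.15, in experiment 1. The corresponding means were 1.36 against 1.68 and 2.01 against 2.42 in experiment 2. The classes were spread differently over the hashtags, so these means mix hashtag and class. In experiment 2, hashtags 4 and 7, lowest in Bcl11a, gave 56 and 51 of the 168 joint cells. They gave 159 and 195 of the 2966 cells with Bcl11a only.

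Joint detection was set beside the share of each gene in cells that should lack it. Of thinned cells with Bcl11b, 28.5% had Bcl11a in experiment 1 and 13.7% in experiment 2, against 1.42% of the 141 thinned mature T-marker cells of experiment 2. Of thinned cells with Bcl11a, 5.68% and 5.36% had Bcl11b. Among granulocyte or monocyte-marker cells the thinned Bcl11b share was 0 of 712 in experiment 1, which allows a share of up to 0.421%, and 1.22% in experiment 2. These pooled shares hide differences between hashtags: in experiment 2, hashtags 4 and 7 gave 56 and 51 of the 168 joint cells, while hashtags 1 and 6 gave 1 and 3, beside 521 and 455 cells with Bcl11a only. Droplets with 2 cells can also look joint. Cells with 2 or more strong hashtags, which were left out elsewhere, showed both genes in 8.01% (39 of 487 thinned cells) in experiment 1 and 5.78% (51 of 882) in experiment 2. Their median depth was 44710.5 and 43303 UMIs. Pairs of cells from the same hashtag cannot be seen this way, and their part in the joint share was not tested. The odds ratio differed by less than its interval when the 5% of cells with the most UMIs were left out. That setting does not single out droplets with 2 cells, so it does not measure their part.

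Joint detection was also rarer than the product of the single shares within stages defined by Kit and Il2ra. The products of these transcripts mark successive steps of early T development. Here + and - stand for a UMI found or not found in the thinned cell. Kit+ Il2ra- cells, the pattern of the earliest progenitors, had Bcl11a in a median of 65.9% of a hashtag's cells and Bcl11b in 1.41% in experiment 1. In Kit+ Il2ra+ cells the medians were 42.2% and 11.9%, and in Kit- Il2ra+ cells 41.3% and 13.2%. Experiment 2 gave medians of 56.4% Bcl11a and 1.39% Bcl11b, 30.4% and 17.8%, and 26.1% and 23.3% for the same states. Bcl11a detection was thus lower and Bcl11b detection higher in the Il2ra+ states. Hashtag 4 of experiment 2 stood out among Kit+ Il2ra- cells, with Bcl11b in 43.2% of 155 cells, where the other 7 hashtags had 0.481 to 7.94%. In experiment 1 hashtags 3 and 4 were highest in this state, at 10.6% and 12.5%, where the others had 0 to 1.90%. Kit- Il2ra- cells had Bcl11b in a median of 1.63% in experiment 1 and 1.65% in experiment 2, with 32.8% in hashtag 4 of experiment 2. Within each state the odds ratio, pooled over hashtags, stayed below 1 with its interval. In experiment 1 it was 0.429 (Kit+ Il2ra-), 0.394 (Kit+ Il2ra+), 0.597 (Kit- Il2ra+) and 0.390 (Kit- Il2ra-). The values for the same states of experiment 2 were 0.260, 0.405, 0.404 and 0.2504. Those of Kit+ Il2ra- cells rest on 29 joint cells in experiment 1 and 13 in experiment 2. Hashtags 3 and 4 gave 16 and 12 of the 29. The joint share itself was not low in every state and hashtag. It reached 9.92% in experiment 1 (Kit- Il2ra+, hashtag 3) and 14.5% in experiment 2 (Kit+ Il2ra+, hashtag 4).

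Other genes were then compared between Bcl11b-only and Bcl11a-only cells of the same hashtag, using all UMIs. A hashtag was used if both classes had at least 30 cells, which left 6 hashtags of experiment 1 (without 2 and 8) and 7 of experiment 2 (without 1). Values are log2 ratios of summed CPM with 1 CPM added, Bcl11b-only over Bcl11a-only, with genes averaging below 20 CPM set aside. Bcl11b-only cells were the shallower class, with hashtag medians of 14093.5 to 22384 UMIs in the 6 used hashtags of experiment 1, against 18990 to 30071 for Bcl11a-only cells. In the 7 of experiment 2 the medians were 15386 to 24434 against 24199.5 to 33273 UMIs. In experiment 1, 35 genes were at least 2-fold higher in Bcl11b-only cells in every used hashtag (0.635% of 5512) and 20 at least 2-fold lower (0.363%). In experiment 2 these were 52 (1.02% of 5105) and 40 (0.784%). Both experiments shared 29 of the higher genes, 82.9% of the list of experiment 1 and 55.8% of that of experiment 2. They shared 19 of the lower genes, 95% and 47.5% of the lists.

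T-cell receptor complex genes led the higher side. Cd3g, a chain of the CD3 signalling complex, had a median of 26.7 CPM in Bcl11a-only and 527.2 CPM in Bcl11b-only cells of experiment 1, and of 19.6 and 563.3 CPM in experiment 2. Its median log2 ratio was 4.01 and 5.25, and it was higher in 13 of 13 hashtags (log2 ratios of 3.48 to 6.61). Cd3d, another CD3 chain, had 2.23 and 107.9 CPM in these classes of experiment 1 (log2 ratio 4.45). Experiment 2 gave 5.96 and 227.6 CPM for Cd3d (5.32). Cd247, the CD3 zeta chain, had log2 ratios of 2.81 and 3.91. All 3 of these CD3 genes were thus more than 4-fold higher by median in both experiments. Skap1, an adaptor of T-cell receptor signalling, had log2 ratios of 4.00 and 4.70. Dntt, the terminal transferase that adds bases at receptor gene junctions, had 2.84 and 3.32. The other leading genes were Gm4632 (3.89 and 3.88), Tubb3, a beta-tubulin (3.32 and 3.77), Epcam, an adhesion molecule (2.78 and 3.06), Endou, an endoribonuclease (2.48 and 3.26) and Mcub, a subunit of the mitochondrial calcium uniporter (2.78 and 3.09). All 10 leading genes were higher in 13 of 13 hashtags.

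Myeloid and progenitor genes led the lower side. Lmo2, an adaptor of stem cell transcription complexes, had a median of 53.8 CPM in Bcl11a-only and 1.94 CPM in Bcl11b-only cells of experiment 1, and of 88.4 and 2.50 CPM in experiment 2. Its log2 ratio was -4.13 and -5.02, and it was lower in 13 of 13 hashtags. Mef2c, a transcription factor of lymphoid and myeloid progenitors, had log2 ratios of -3.56 and -4.12. Cd34, a progenitor surface glycoprotein, had -2.08 and -2.78. These 3 progenitor genes were lower in every used hashtag. Prtn3 and Ctsg, proteases of neutrophil granules, had -5.30 and -4.78, and -2.95 and -2.18. The remaining leading genes were Cd300a, an inhibitory receptor (-3.24 and -4.23), Ms4a6c (-2.55 and -3.53), Tyrobp, an ITAM adaptor (-2.73 and -3.61), and H2-Eb1 and Cd74 of the MHC class II pathway (-3.21 and -2.43, and -2.98 and -2.93).

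Cells with markers of other types were unequally spread over the classes. The class shares pool hashtags that differ in both classes and marker cells, so they mix hashtag and class. In experiment 2, hashtags 4 and 7 gave 527 and 375 of the 1373 Bcl11b-only cells. They also had the lowest shares of granulocyte or monocyte-marker cells there, at 7.95% and 4.72%. Granulocyte or monocyte-marker cells made up 10.6% (experiment 1) and 24.1% (experiment 2) of Bcl11a-only cells. They made up 0 of 670 Bcl11b-only cells of experiment 1, which allows up to 0.448%, and 0.728% of those of experiment 2. The summed level of the 10 granulocyte or monocyte markers ran from 297.4 to 622.9 CPM over the hashtags in Bcl11a-only cells and from 14.8 to 54.9 CPM in Bcl11b-only cells of experiment 1, with none of the 10 at 0 in either class. In experiment 2 the ranges were 339.0 to 5726 and 52.3 to 1176 CPM. Dendritic-marker cells were 21.3% and 39.0% of Bcl11a-only against 10.7% and 13.5% of Bcl11b-only cells. They held 13.4% and 20.6% of the Bcl11b UMIs, so leaving out marker cells also removed many cells with Bcl11b. In experiment 2 Bcl11b was found in 46.3% of the 460 dendritic-marker cells of hashtag 4, and in 1.67 to 13.7% of those of the other hashtags. Mature T-marker cells were 4.59% of the Bcl11b-only cells of experiment 2, and 97 of the 148 such cells of that experiment came from hashtag 4, where they held 2.08% of the Bcl11b UMIs. The summed NK list was higher in Bcl11b-only cells, at a median of 3676 against 1114 CPM in experiment 1 and 3280 against 565.9 CPM in experiment 2. Its members Ncr1 and Eomes added almost nothing to these sums. They averaged 0.13 and 0.19 CPM over the 2 classes in experiment 1 and 1.07 and 0.58 CPM in experiment 2, so the sum does not show a rise of the whole list. Cells with 3 or more NK markers were nevertheless 0 of 670 (up to 0.448%) and 0.728% of the Bcl11b-only class, and Gzma, a granzyme of that list, was among the 29 shared higher genes.

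Leaving out all cells with markers of other types left 39 genes in experiment 1 (25 higher, 14 lower) and 61 in experiment 2 (45 higher, 16 lower), where 6 hashtags could then be used. Over both experiments together, the median log2 ratio of Cd3d was 4.76 with and 4.39 without those cells, and that of Cd3g 4.99 and 3.84. Lmo2 was at -4.35 and -3.97, and Mef2c at -4.06 and -3.60. The large differences of the T-receptor and progenitor genes were thus present without these cells. Of the MHC class II genes, Cd74 went from -2.93 to -0.59 and H2-Eb1 from -3.13 to -0.996. The myeloid genes moved by different amounts, with Ms4a6c at -3.32 and -1.51, Cd300a at -4.18 and -2.61, Prtn3 at -4.99 and -3.50, Tyrobp at -3.15 and -2.59 and Ctsg at -2.83 and -2.30. Cd74, H2-Eb1, Prtn3 and Ctsg are themselves on the marker lists. The cells left out were chosen partly for their counts of these genes, so smaller ratios were built in. Cd3d, Cd3g, Lmo2 and Mef2c are on no marker list, so the shifts of the groups are not comparable.

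Gene lists gave the wider picture, with a gene counted where its median log2 ratio over hashtags was at least 1 in size. Among all genes tested, that threshold was passed upward by 82 (1.49%) and downward by 65 (1.18%) in experiment 1, and by 134 (2.62%) and 127 (2.49%) in experiment 2, with medians of 0.02 and 0.00. Of 16 T-commitment genes, 7 had enough counts in experiment 1 and 5 of these were higher. In experiment 2, 10 had enough and 10 were higher. The medians were 2.72 and 3.70. Beyond the CD3 genes, Ets1, a T-cell transcription factor, had log2 ratios of 2.72 and 3.49, Lat, a signalling adaptor, 1.71 and 2.59, and Lck, the proximal receptor kinase, 0.99 and 1.75. Tcf12, an E protein, was at 0.85 and 1.22.

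Notch and T-specification genes differed less. Among those with enough counts, 2 of 9 were higher in experiment 1 and 4 of 8 in experiment 2, with medians of 0.56 and 1.004. Thy1, a T-lineage surface protein, had log2 ratios of 2.24 and 3.24, and Il2ra 1.26 and 1.75. The transcription factors Tcf7 (0.73 and 1.37) and Gata3 (0.88 and 1.35) were higher in 13 of 13 hashtags. The Notch targets Hes1 (0.27 and 0.44) and Dtx1 (0.21 and 0.20) stayed under the threshold, and so did the receptor gene Notch1 (0.56 and 0.66). Myc lay below 0, at -0.44 and -0.46, and was higher in 1 of 13 hashtags. Nrarp, a Notch target tested in experiment 1 alone, was at -0.42 there.

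Progenitor genes were divided. Of 15, 8 had enough counts, and 5 of the 8 were lower in both experiments, none higher, with medians of -1.70 and -2.29. Besides Lmo2, Mef2c and Cd34, the lower ones were Spi1 (PU.1, a regulator of myeloid and early progenitor genes) at -1.97 and -2.70 and the homeobox factor Hhex at -1.43 and -1.88. Kit (-0.21 and -0.48) and Lyl1 (-0.15 and -0.42) were under the threshold, and Myb was slightly higher (0.51 and 0.64). The difference was thus far larger for Lmo2 and Mef2c than for Kit.

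**Figure D5:**
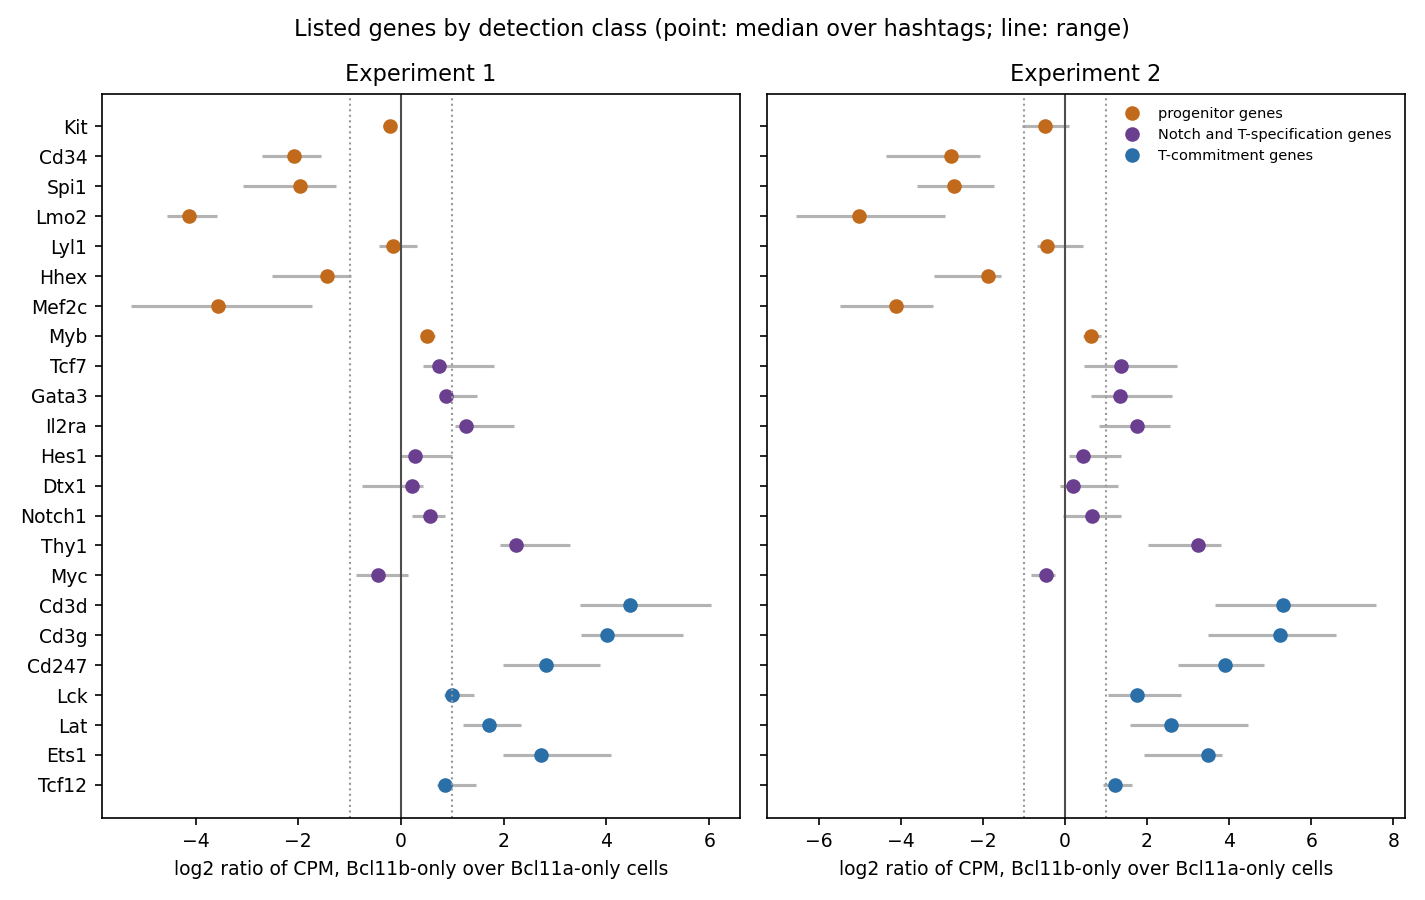
Median log2 ratio of CPM (Bcl11b-only over Bcl11a-only cells, 1 CPM added) over the used hashtags, with a line for the range, for listed genes tested in both experiments, coloured by list. Dotted lines mark a 2-fold difference. Cd3d and Cd3g reach 4.45 and 4.01 in experiment 1 and 5.32 and 5.25 in experiment 2, and Lmo2 reaches -4.13 and -5.02.

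The other lists held programmes linked to the 2 factors. Of 7 innate lymphoid and NK genes tested, none was higher in experiment 1 and 2 were in experiment 2, namely Gzmb, a granzyme (0.16 and 1.54), and the receptor gene Cd160 (0.51 and 1.12). Gzmb ranged from -1.55 to 6.25 over the hashtags of experiment 2, and its median over both experiments turned from 1.12 to -0.66 without the cells carrying markers of other types. Tyrobp was the lower gene of that list, while Nkg7 (0.29 and 0.54), Fcer1g (0.33 and -0.08), Id2 (0.15 and -0.54) and Tox (0.80 and 0.93) were within 2-fold. Zbtb16, the gene of PLZF, had too few counts for the test, at means of 18.1 and 11.1 CPM. Of the B-lineage and plasmacytoid dendritic list, 5 of 14 genes were tested. Ly6d, a surface antigen shared by early B and T cells, was higher (1.61 and 2.35), Irf8, a factor of dendritic cells, was lower (-1.72 and -2.16), and Cd79b, a B-cell receptor chain, was lower in experiment 2 (-0.62 and -1.19). Tcf4 (-0.05 and -0.06) and Bst2 (0.13 and 0.23) hardly differed. Among 7 globin genes only Hbb-bt was tested, at a median of 1999 CPM in Bcl11a-only and 644.8 CPM in Bcl11b-only cells of experiment 1 and of 1793 and 361.3 CPM in experiment 2 (-1.52 and -2.31). Hbb-bt and Hbb-bs are near-identical, so their split is uncertain. The embryonic genes Hbb-y and Hbb-bh1 had means of 1.23 and 0 CPM in experiment 1 and of 0.307 and 0.006 CPM in experiment 2. Hba-a1 averaged 0.50 and 0.49 CPM in experiments 1 and 2. The perturbed genes were within 2-fold between the classes, at 0.36 and 0.45 for Runx1 and 0.01 and -0.17 for Runx3, and their cofactor gene Cbfb was at 0.14 and -0.07. Runx1 counts may include vector transcripts, which were not told apart from those of the gene itself.

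Joint cells were compared with both exclusive classes in 6 hashtags of each experiment. For the median levels of the exclusive classes in experiment 2, however, 7 hashtags were used. These took in hashtag 6, which had only 19 joint cells and gave no value for the joint class. All 29 shared higher genes and all 19 shared lower genes had a median level in joint cells between those of the exclusive classes, in both experiments. They had been chosen because the exclusive classes differed at least 2-fold in every used hashtag of the same data. That choice makes a level in between likely for any other group of cells, including a mixture. The counts of 29 and 19 therefore say little about joint cells. The 29 genes had a median log2 ratio of 1.55 for joint over Bcl11a-only cells and of -0.70 for joint over Bcl11b-only cells in experiment 1, and of 2.08 and -0.81 in experiment 2. For the 19 lower genes the ratios were -1.15 and 0.84, and -1.19 and 1.31. Cd3g, for example, had a median of 228.7 CPM in joint cells of experiment 1 and 307.6 CPM in experiment 2, and Lmo2 of 10.9 and 15.7 CPM. All UMIs were used here too, and joint cells were deeper than Bcl11b-only cells in each compared hashtag. Their hashtag medians were 21570 to 31247 UMIs in experiment 1 and 26370 to 34318 in experiment 2. Droplets with 2 cells were not separated within a hashtag. The part of such droplets and of depth in the levels of joint cells was not tested.

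Genes were finally ranked by how closely their level followed each member over the 8 hashtags, as the mean over both experiments of Pearson's r of log2(CPM + 1), among 6895 genes of at least 10 CPM. For Bcl11a the closest were Arpc4 (an Arp2/3 actin subunit; r of 0.95 and 0.94 in experiments 1 and 2), Ebpl (0.97 and 0.92), Cd34 (0.94 and 0.95), Pou2f2 (the transcription factor OCT2; 0.94 and 0.93) and Cyb5r1 (0.90 and 0.97). Cd34 ran from 92.5 to 226.4 CPM and from 36.0 to 196.1 CPM over the hashtags, whereas Arpc4 moved little, from 240.1 to 267.4 and from 222.6 to 287.0 CPM. For Bcl11b they were Fam169b (0.98 and 0.98), Tcf12 (0.97 and 0.98), Trbc1 (a T-cell receptor beta constant gene; 0.99 and 0.96), Kansl1l (0.97 and 0.97) and Prkcq (protein kinase C theta of T-cell signalling; 0.97 and 0.97). Fam169b ran from 16.5 to 66.5 CPM and from 8.75 to 72.2 CPM, and Trbc1 from 230.1 to 491.9 and from 187.0 to 842.9 CPM. Trbc1 has a near-identical copy, so its counts are uncertain. With 8 hashtags that share a library and were ranked over so many genes, these values only describe likeness.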

How the data were processed

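The mRNA matrices hold raw UMI counts per gene and cell as deposited by the authors, and the hashtag tables hold deposited raw counts per cell for 8 tags; whether those are molecules or reads is not given in the sources used here. Cell Ranger 3.0.0 and builds mm10 and GRCm38 are named in the submitters' processing notes. No deposited column was left without a sample. A cell took a hashtag when its top tag had at least 50 counts and at least 3 times the second (94.3% and 81.6% of filtered cells). Summed counts were scaled to CPM (Python 3.11.15, scipy 1.17.1), with exact Poisson, Clopper-Pearson and conditional intervals. The Mantel-Haenszel interval is the Robins-Breslow-Greenland one. Positions came from RefSeq on GRCm38.p6. Other scalings used edgeR 4.0.16 (TMM) and DESeq2 1.42.0 (size factors). No p-value was computed. Scripts were tested on simulated data. The members, the 7 gene lists, the 7 marker lists and the alternatives were chosen with earlier results of these data known. Named genes were the list members with at least 20 CPM, with a few less abundant ones named as such, the 10 highest and 10 lowest median ratios between the exclusive classes, and the 5 genes most like each member. Gzma was named after its values were seen. No doublet caller was run, and cells with more than 1 strong tag were left out.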

Additional observations from a re-analysis of the deposited data

Results flagged for a closer look

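The mean number of Bcl11b UMIs per Bcl11b-detecting cell in hashtag 4 of experiment 2 was 4.95, against 2.89 in the next hashtag. The gap was 0.712 of the range over the 8 hashtags, past the 95% critical value of Dixon's test for 8 values. Of 20 sets of 8 values checked, 1 was marked in this way, and chance marks about 1 in 20.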

How the results depend on the processing

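The odds ratio of joint detection stayed below 1 under every alternative run, but its size moved. Shares of joint cells depend on depth. Thinning to 5000 UMIs gave 1.05% (experiment 1) and 0.657% (experiment 2), thinning to 20000 gave 5.77% and 5.85%, and no thinning gave 7.33% and 6.74%. With 2 or more UMIs of each gene required they were 0.247% and 0.246%. Without cells carrying markers of another type, an alternative chosen after seeing the data, the share of experiment 2 was 2.89%. The odds ratio was 0.218 and 0.195 with 2 or more UMIs of each gene, 0.316 without thinning in experiment 1, and 0.208 and 0.326 at 5000 and 20000 UMIs in experiment 2. The Bcl11a ratio of highest to lowest hashtag was 1.84 without the 5% deepest cells in experiment 1, 2.96 with DESeq2 size factors in experiment 2, 2.05 and 3.18 as a mean over cells, and 2.12 and 3.76 without marker cells. Without the 5 cells richest in Bcl11b per hashtag, the Bcl11b ratio was 15.99 and 96.7. Genes at least 2-fold different numbered 55 and 92; with a minimum of 5 CPM they were 111 and 173, with no minimum 151 and 220, and without marker cells 61 in experiment 2. Gzmb reversed to -0.66 there. Leaving out each hashtag in turn gave Bcl11a ratios of 1.58 to 1.73 and 2.24 to 2.73, Bcl11b ratios of 5.74 to 10.5 and 27.0 to 62.9, joint shares of 2.34 to 3.17% and 1.67 to 2.46%, odds ratios of 0.344 to 0.410 and 0.236 to 0.284, and 56 to 68 and 92 to 119 genes. When a hashtag is left out, a highest-to-lowest ratio can only stay or fall. The count of genes 2-fold different in every used hashtag can only stay or rise. The direction of those changes was thus fixed in advance, and only their size is informative. The cause of the shifts under all these settings was not tested, beyond the fewer or more UMIs, cells and genes each setting admits. No paired analysis was possible because the hashtag columns carry no condition or replicate number.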
